A study of Mus musculus with 4 samples.

Results

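Oligodendrocyte lineage and myelin genes were followed in total RNA from dissected striatum of aged mice, as 34 genes chosen by symbol. All 34 have a row in the count files, among 32531 gene rows, and all 34 passed the filter on low counts that left 14493 genes for testing. They were sorted by known role into 4 genes of oligodendrocyte precursors, 3 of committed or newly formed cells, 5 lineage transcription factors, and 22 genes of myelin and mature cells. The comparison set 2 libraries of nucleus accumbens against 2 libraries of dorsal striatum. Every library came from mice older than 20 months of the Drd1-TRAP line CP73, which carries an EGFP/Rpl10a fusion whose expression is driven by the Drd1 promoter in the neurons that use it. The fusion tags ribosomes for affinity purification, but all 4 libraries are labelled as input, the material before purification. No younger animals and no other line were included, and the labels do not say whether libraries came from separate or pooled animals.

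Oligodendrocytes wrap axons in myelin, a stack of membrane rich in cholesterol and galactolipids and held together by a small set of abundant proteins. They arise from precursor cells that carry the platelet-derived growth factor receptor PDGFRA and the proteoglycan NG2 and that persist through adult life. As precursors commit to differentiate they pass through a stage marked by the receptor GPR17, and the transcription factors SOX10 and MYRF then switch on the myelin genes. In the striatum myelin lies mostly in fibre bundles that cross the dorsal part, and the accumbens borders the anterior commissure. In bulk tissue, fewer oligodendrocytes and less RNA per oligodendrocyte cannot be told apart.

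RefSeq promoter windows (GRCm38.p6, the assembly of the mm10 build) were found for 22 of the 34 genes, and 4 are printed here because the results below turn on these genes or set them apart. Each window covers bases 250 to 51 before the annotated start, 200 bases in all, written 5′ to 3′ on the strand of the gene. Pdgfra marks the precursors (chr5:75152001-75152200, plus strand). Mobp is an abundant myelin gene whose groups overlapped (chr9:120149492-120149691, plus strand). Ermn (chr2:58052915-58053114, minus strand) and Mal (chr2:127656746-127656945, minus strand) are the structural myelin genes with the most negative differences, and all but Pdgfra were chosen after values were seen. None of these 4 windows overlaps an annotated exon in the GENCODE annotation. Capitals mark matches on either strand to 4 motifs: the E-boxes CAGCTG and CAGATG, a motif class bound by OLIG proteins, and ACAAAG and ACAATG, which belong to the motif class bound by SOX proteins.
Pdgfra: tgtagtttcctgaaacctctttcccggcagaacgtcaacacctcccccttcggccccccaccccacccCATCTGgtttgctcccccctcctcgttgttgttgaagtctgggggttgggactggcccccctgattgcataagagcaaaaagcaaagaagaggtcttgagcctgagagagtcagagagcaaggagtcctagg
Mobp: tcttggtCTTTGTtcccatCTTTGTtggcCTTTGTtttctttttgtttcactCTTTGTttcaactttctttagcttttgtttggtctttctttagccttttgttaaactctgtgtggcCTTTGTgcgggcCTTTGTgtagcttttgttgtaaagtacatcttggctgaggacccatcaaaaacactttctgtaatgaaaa
Ermn: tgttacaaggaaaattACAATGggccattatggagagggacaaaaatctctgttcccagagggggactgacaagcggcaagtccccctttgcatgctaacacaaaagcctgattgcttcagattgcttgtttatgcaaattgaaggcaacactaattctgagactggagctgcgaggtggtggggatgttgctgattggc
Mal: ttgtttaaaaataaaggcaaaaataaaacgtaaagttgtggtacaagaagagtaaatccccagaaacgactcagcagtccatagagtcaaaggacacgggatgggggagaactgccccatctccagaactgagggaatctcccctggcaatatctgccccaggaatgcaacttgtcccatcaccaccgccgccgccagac

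The Mobp window held 6 separate matches to ACAAAG, all read from the opposite strand. It was the single window with 6 or more among 32851 windows of the same length, where 13.6% held at least 1. The cutoff of 6 was taken from this window itself, which had the most such matches among the member windows. Its rank is therefore a description and no test. The Pdgfra window held 1 match to CAGATG (12% of all windows), the Ermn window 1 match to ACAATG (8.94%), and the Mal window no match to any of the 4 motifs. CAGCTG was found in 10.3% of all windows. Any of the 4 motifs was present in 17 of 29 windows of the member genes, since some genes have several starts, and in 37.8% of all windows. These matches describe the reference sequence and were not measured in the tissue.

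Libraries held 8478403 to 11849134 counts in genes. The 34 genes together took 0.401% (replicate 1) and 0.295% (replicate 2) of these counts for dorsal striatum, against 0.302% and 0.339% for accumbens. The lowest count of a member in any library was 8, for C1ql1. The neuronal genes Drd1, Ppp1r1b and Penk, which mark spiny projection neurons, were present in every library. Libraries differed in markers of neighbouring tissue. Slc17a7, a glutamate transporter gene typical of cortical neurons, had 32.3 and 0.717 CPM in dorsal striatum against 198 and 79.4 CPM for accumbens. The ciliated cell gene Foxj1 stood at 7.57 and 6.69 CPM against 1.49 and 2.38 CPM. It belongs to a list of 8 ependymal and choroid plexus markers that did not all move this way. Of the 4 tested, 3 were lower and 1 was higher in accumbens. Sums of the 8 were 16.4 and 18.4 CPM against 12.6 and 13.9 CPM. The part of such tissue in the results below was not tested.

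None of the 34 genes passed the threshold for a difference between accumbens and dorsal striatum. With edgeR's quasi-likelihood test and adjustment over all 14493 genes, 186 genes passed, or 1.28% (0.994% higher in accumbens and 0.29% lower). At an unadjusted p under 0.05 the count was 6 of 34, against 19.2% of all tested genes. Of these 4 were higher in accumbens (10.9% of all genes) and 2 lower (8.27%). DESeq2 called 2 members, Mbp and Ermn, beside 6.44% of all genes (4.15% higher and 2.29% lower). It gave no adjusted p for C1ql1, Gpr17, Enpp6, Nkx6-2, Opalin and Gjb1, which it therefore could not call. Genes without an adjusted p remain in the 14493 behind these shares. Limma-voom called Mbp, beside 2.97% (2.14% higher and 0.835% lower). The median log2 fold change of the 34 genes, accumbens over dorsal striatum, was 0.08, beside 0.02 for all tested genes. In 11 members both accumbens libraries lay above both dorsal striatum libraries (25.6% of all genes), in 4 both lay below (25.6%), and in 19 the groups overlapped. Over all genes 51.2% did not overlap, so the share among members, 15 of 34, is close to the background. The plot of levels by library shows each of these values. Below, levels are CPM, counts scaled to library size with TMM factors, and are given for replicate 1 and then replicate 2 of a region. SE is the standard error of a log2 fold change, and each adjusted p is that of the edgeR test.

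Fits that left out 1 library called very different shares of all genes, and the calls of single genes given below are to be read against them. The library left alone in its region was given the spread of the other region. Without accumbens replicate 1, 18.2% of all genes passed (10% higher in accumbens and 8.13% lower), and 11 of 34 members did. Without accumbens replicate 2, 28.9% passed (15.5% higher and 13.5% lower), and 8 of 34 members did. Without dorsal striatum replicate 1 the share was 0.71% (0.528% higher and 0.182% lower) and 1 member, Mbp, passed. Without dorsal striatum replicate 2 it was 1.09% (0.858% higher and 0.227% lower), with Ermn as the 1 member.

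**Figure D1:**
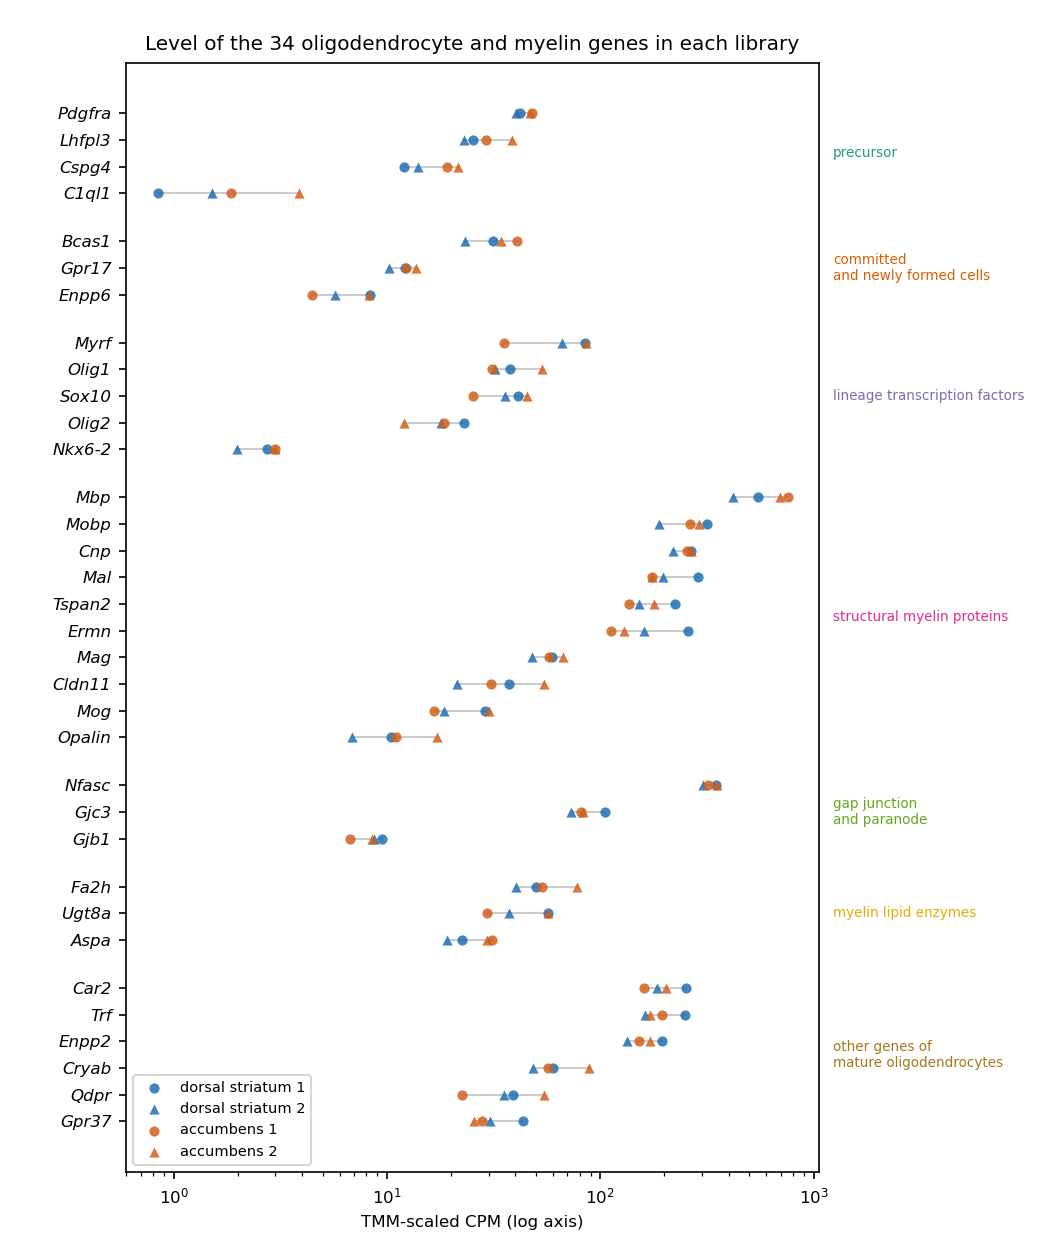
TMM-scaled CPM (log axis) of each of the 34 genes in the 4 libraries, grouped by role; blue marks dorsal striatum, orange accumbens, circles replicate 1 and triangles replicate 2, and grey lines join the lowest and highest library. Mbp has both accumbens libraries (754 and 698 CPM) above both dorsal striatum libraries, Ermn has both below, and most other myelin genes overlap.

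The 4 precursor genes all had accumbens values above dorsal striatum values, as did 25.6% of all tested genes. Their median log2 fold change was 0.56, but none passed the threshold. Pdgfra, the receptor gene that defines these cells, stood at 42.1 and 40.2 CPM in dorsal striatum against 47.7 and 47.0 CPM in accumbens. The groups are close and do not overlap, and the log2 fold change was 0.20 (SE 0.18, adjusted p = 0.590). Cspg4, which encodes the proteoglycan NG2, stood at 12 and 14.0 CPM against 19.2 and 21.5 CPM. Both accumbens libraries were higher, and the difference was 0.64 on the log2 scale (SE 0.28, adjusted p = 0.259). Lhfpl3, a tetraspan-like membrane protein gene enriched in precursors, stood at 25.4 and 22.9 CPM against 29.0 and 38.4 CPM (0.48, SE 0.24, adjusted p = 0.317). Accumbens replicate 2 is the high library here. C1ql1, which encodes a secreted C1q-like protein, was low throughout, at 0.841 and 1.51 CPM against 1.86 and 3.88 CPM, from 8 and 19 counts against 15 and 31. Its log2 fold change of 1.26 has an SE of 0.81 (adjusted p = 0.440), and its replicates were apart by −0.71 in dorsal striatum and −0.98 in accumbens (log2, replicate 1 minus replicate 2). Without accumbens replicate 1, where 18.2% of all genes passed, so did Cspg4 and Lhfpl3 (log2 fold changes 0.72 and 0.67, adjusted p = 0.0412 and 0.0279).

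Both Pdgfra and Cspg4 are also made by other cells. Pericytes and other mural cells express Cspg4, and 8 of their markers summed to 33.3 and 20.2 CPM in dorsal striatum against 27.7 and 18.5 CPM in accumbens. Of these, 6 were tested and none passed (DESeq2 and limma-voom called 0, as did an unadjusted p under 0.05). Perivascular fibroblasts express Pdgfra, and their 8 markers summed to 12.3 and 9.56 CPM against 13.3 and 11 CPM, with the collagen gene Col1a1 at 0.841 and 0.638 CPM against 0.372 and 0.750 CPM. Both sums overlapped between the regions. Other marker sums moved with the precursor genes. Sums of 8 neuroblast and progenitor markers were 133 and 135 CPM against 194 and 172 CPM, and those of 8 cortical neuron markers 131 and 65.6 CPM against 329 and 212 CPM. Their part in the precursor values was not tested.

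Genes of committed and newly formed oligodendrocytes showed no difference past the threshold. Bcas1, which labels cells that are beginning to myelinate, stood at 31.3 and 23.2 CPM against 40.5 and 34.4 CPM. Both accumbens libraries were higher, with a log2 fold change of 0.46 (SE 0.24, adjusted p = 0.336), and the gene passed without accumbens replicate 2 (0.57, adjusted p = 0.0447). Gpr17, the receptor gene of the transitional stage, stood at 12.2 and 10.2 CPM against 12.3 and 13.8 CPM. The lower accumbens library lay just above the higher dorsal striatum library (0.22, SE 0.32, adjusted p = 0.771). Enpp6, a choline phosphodiesterase gene of newly formed oligodendrocytes, stood at 8.30 and 5.74 CPM against 4.46 and 8.25 CPM. Here each region had a high and a low library, and the log2 fold change was −0.14 (SE 0.48, adjusted p = 0.915).

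Of the 5 lineage transcription factors, all but Nkx6-2 differed more between the accumbens replicates than between regions. Myrf, which encodes the factor that turns on myelin genes, stood at 85.1 and 66.2 CPM in dorsal striatum against 35.4 and 85.6 CPM in accumbens. Accumbens replicate 1 held the lowest value and replicate 2 the highest. Sox10 stood at 41.2 and 35.8 CPM against 25.4 and 45.1 CPM, and Olig1 at 37.7 and 32.0 CPM against 31.1 and 53.3 CPM, in the same order of libraries. Olig2, the neighbour and relative of Olig1 and needed to specify the lineage, had the opposite order within accumbens, at 23.0 and 17.9 CPM against 18.5 and 12 CPM. Nkx6-2, a homeobox gene of mature oligodendrocytes, was low, at 2.73 and 1.99 CPM against 2.97 and 3.0 CPM. Log2 fold changes of these 5 genes lay between −0.42 (Olig2, SE 0.32) and 0.34 (Nkx6-2, SE 0.66), with adjusted p from 0.518 to 0.859. Calls depended on which accumbens library was kept, in fits that called 18.2% and 28.9% of all genes. Without accumbens replicate 2, Myrf (−1.09, adjusted p = 0.000309) and Sox10 (−0.60, adjusted p = 0.0352) passed as lower in accumbens. Without accumbens replicate 1, Myrf was at 0.18 and Sox10 at 0.23, Olig1 passed as higher (0.61, adjusted p = 0.0301) and Olig2 as lower (−0.77, adjusted p = 0.0414).

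Structural myelin genes did not shift together between regions. Of 10 such genes 6 had a positive and 4 a negative log2 fold change, with a median of 0.11, and none passed the threshold. At an unadjusted p under 0.05, 1 was higher in accumbens and 2 were lower. The widest gap in each direction among these genes, leaving aside low Opalin, belonged to Mbp and Ermn.

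Mbp encodes myelin basic protein, which compacts the inner faces of the membrane, and lies at chromosome 18, 82475146 to 82585637. Its level reached 549 and 419 CPM in dorsal striatum against 754 and 698 CPM in accumbens, from 5221 to 6090 counts per library. Both accumbens libraries lay above both dorsal striatum libraries, and the gene was 1.5-fold higher. The log2 fold change was 0.59 (SE 0.15, adjusted p = 0.0951). The locus also makes longer Golli transcripts outside myelin, and counts per gene do not separate them. Mbp passed in 7 of 13 alternative fits and stayed positive in all 13 (0.40 to 0.77), with adjusted p from 0.00117 to 0.506. It passed without dorsal striatum replicate 1 (0.77, adjusted p = 0.0145), without accumbens replicate 1 (0.53, adjusted p = 0.0196) and without accumbens replicate 2 (0.64, adjusted p = 0.00311). Without dorsal striatum replicate 2 it had the 0.40 and the 0.506.

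Ermn encodes ermin, a cytoskeletal protein of the outer myelin layers, and lies at chromosome 2, 58045113 to 58052864. It stood at 256 and 161 CPM in dorsal striatum against 112 and 130 CPM in accumbens. Both accumbens libraries were lower, and dorsal striatum replicate 1 was far above the other 3 libraries. The log2 fold change was −0.79 (SE 0.22, adjusted p = 0.116). It was negative in all 13 alternatives (−1.09 to −0.43) and passed in 6, with adjusted p from 0.000102 to 0.872. Among fits that left out 1 library it passed without dorsal striatum replicate 2 (−1.09, adjusted p = 0.00735), accumbens replicate 1 (−0.69, adjusted p = 0.0176) or accumbens replicate 2 (−0.90, adjusted p = 0.00180), and the −0.43 and 0.872 came without dorsal striatum replicate 1. Mal, a proteolipid gene of myelin membrane traffic, showed the same order at 286 and 197 CPM against 175 and 175 CPM (−0.47, SE 0.18, adjusted p = 0.217). It passed without accumbens replicate 2 (−0.47, adjusted p = 0.0491).

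The other abundant structural genes overlapped between regions. Mobp, which encodes a small basic protein of compact myelin, ranged from 189 to 317 CPM, and dorsal striatum held both the lowest and the highest library (0.12, SE 0.22, adjusted p = 0.819). Cnp, the cyclic nucleotide phosphodiesterase gene of the cytoplasmic channels in myelin, was the steadiest, at 266 and 219 CPM against 256 and 266 CPM (0.10, SE 0.14, adjusted p = 0.741). The signs of Mobp and Cnp turned negative with scaling by library size alone (−0.048 and −0.066). Tspan2, a tetraspanin gene, stood at 223 and 152 CPM against 137 and 179 CPM (−0.25, SE 0.21). Mag, the adhesion molecule gene of the membrane facing the axon, stood at 59.4 and 48.0 CPM against 57.7 and 66.8 CPM (0.22, SE 0.19). Cldn11, whose claudin seals myelin layers, stood at 37.4 and 21.4 CPM against 30.8 and 54.8 CPM (0.55, SE 0.34). Mog, an outer surface glycoprotein gene, stood at 28.7 and 18.5 CPM against 16.6 and 30.3 CPM (−0.01, SE 0.35). For each of these 4 genes the regions overlapped and the adjusted p lay between 0.433 and 0.994. Opalin, a glycoprotein gene of mature oligodendrocytes, was low, at 10.4 and 6.85 CPM against 11 and 17.1 CPM, without overlap (0.71, SE 0.39, adjusted p = 0.364). Cldn11 (0.91, adjusted p = 0.00959) and Opalin (1.00, adjusted p = 0.0178) passed without accumbens replicate 1.

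**Figure D2:**
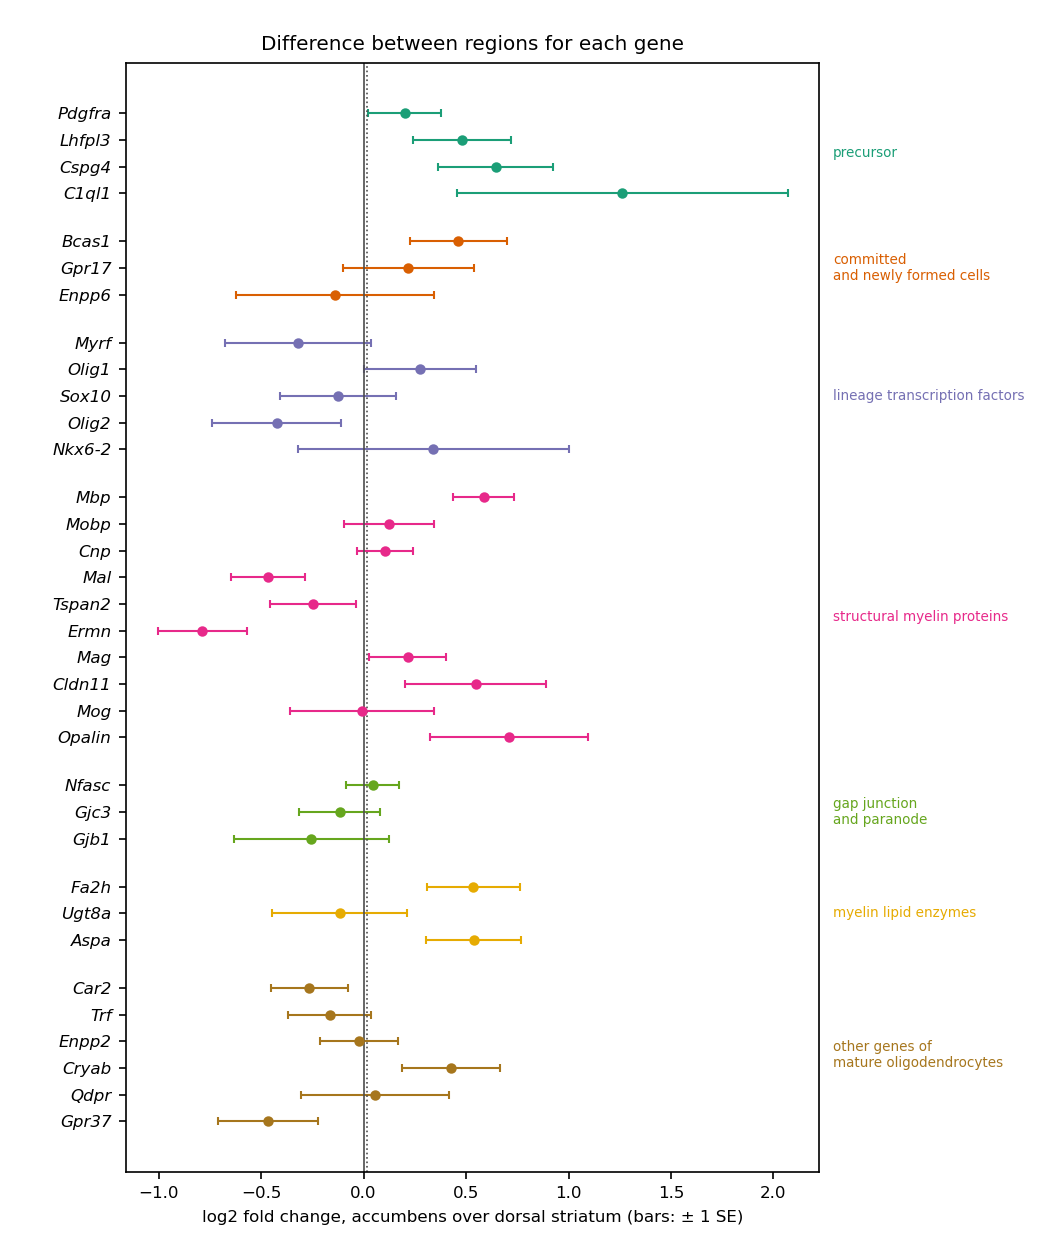
Log2 fold change (accumbens over dorsal striatum) of each gene with bars of 1 SE, grouped and coloured by role; the solid line marks 0 and the dotted line the median of all tested genes, 0.02. The 4 precursor genes lie to the right of 0, whereas structural myelin genes run from −0.79 for Ermn to 0.71 for Opalin.

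Enzymes of myelin lipids split as well. Fa2h, whose product adds the hydroxyl group to the fatty acids of galactolipids, stood at 50 and 40.1 CPM against 53.1 and 77.4 CPM (0.54, SE 0.23, adjusted p = 0.25). Aspa, whose product releases acetate from N-acetylaspartate for lipid synthesis, stood at 22.6 and 19.1 CPM against 31.0 and 29.5 CPM (0.54, SE 0.23, adjusted p = 0.259). Neither gene overlapped between regions, and Fa2h passed without accumbens replicate 1 (0.78, adjusted p = 0.00467). Ugt8a, which encodes the galactosyltransferase that makes galactosylceramide, stood at 56.6 and 37.2 CPM against 29.4 and 57.0 CPM. Its accumbens replicates lay on either side of the dorsal striatum pair (−0.12, SE 0.33, adjusted p = 0.892), and it passed as lower without accumbens replicate 2 (−0.67, adjusted p = 0.0296).

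Gap junction and paranode genes overlapped or nearly so. Gjc3 encodes the oligodendrocyte connexin Cx29 and stood at 105 and 73.0 CPM against 81.0 and 83.4 CPM (−0.12, SE 0.20). Gjb1, the Cx32 gene, was low, at 9.46 and 8.69 CPM against 6.69 and 8.50 CPM (−0.26, SE 0.38). Nfasc stood at 348 and 304 CPM against 321 and 351 CPM (0.04, SE 0.13), a difference whose sign turned with upper-quartile factors and with library size alone. Nfasc makes a glial form at paranodes and a neuronal form at nodes, which counts per gene do not separate. Adjusted p for these 3 genes ran from 0.774 to 0.896.

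Among other genes of mature oligodendrocytes the groups overlapped in 5 of 6. Car2, the cytosolic carbonic anhydrase gene, stood at 252 and 185 CPM against 160 and 203 CPM (−0.26, SE 0.19), and Enpp2, which encodes autotaxin, at 194 and 134 CPM against 152 and 170 CPM (−0.02, SE 0.19). Trf, the transferrin gene, stood at 248 and 162 CPM against 194 and 172 CPM (−0.17, SE 0.20). In the GENCODE annotation another protein-coding entry, Gm20425, shares 63.5% of the Trf exon bases on the same strand, and it has no row in the files, so the Trf level depends on the gene models used for counting. Cryab, a small heat shock protein gene also made by astrocytes, stood at 59.8 and 48.5 CPM against 56.6 and 88.9 CPM (0.43, SE 0.24). Gpr37, a receptor gene of myelinating cells, stood at 43.5 and 30.4 CPM against 27.9 and 25.5 CPM, the one gene of this group without overlap (−0.47, SE 0.24). Qdpr, the dihydropteridine reductase gene, stood at 38.9 and 35.5 CPM against 22.5 and 54.8 CPM. Accumbens replicates 1 and 2 of Qdpr came from 182 and 438 counts, and the pooled log2 fold change of 0.06 (SE 0.36) was −0.72 (adjusted p = 0.0139) without replicate 2 and 0.56 (adjusted p = 0.0415) without replicate 1. With both replicates, adjusted p for these 6 genes ran from 0.342 to 0.968. Cryab passed without accumbens replicate 1 (0.72, adjusted p = 0.00656).

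Levels can be compared between genes only per length. Divided by the longest coding transcript in kilobases, the mean over 4 libraries was highest for Mbp at 126 CPM per kb, followed by Car2 (112), Cnp (107), Mobp (80.5), Trf (75.5) and Mal (74.9). Car2 led in dorsal striatum (122, followed by Cnp at 103 and Mbp at 101), and Mbp led in accumbens (151 against 111 for Cnp). Library values of neighbours among these 6 overlapped. Among the transcription factors Olig1 had 17.8, Sox10 13.3, Myrf 12, Olig2 7.06 and Nkx6-2 2.06 CPM per kb. Precursor genes lay at the low end, with Lhfpl3 at 9.28, Pdgfra at 6.48, Cspg4 at 2.05 and C1ql1 at 1.37 CPM per kb, and the last of the 34 was Enpp6 at 1.35.

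The precursor sum lay higher in both accumbens libraries, while the myelin sum did not separate the regions. The 4 precursor genes summed to 80.4 and 78.7 CPM in dorsal striatum against 97.7 and 111 CPM in accumbens. The 22 myelin and mature genes summed to 3462 and 2510 CPM against 2948 and 3227 CPM, so that dorsal striatum held both the highest and the lowest library. The ratio of the sums came to 43.1 and 31.9 in dorsal striatum against 30.2 and 29.1 in accumbens. Without Mbp, the largest single contributor, it was 36.2 and 26.6 against 22.4 and 22.8. As medians of single genes, log2 fold changes were 0.56 for the precursor genes and 0.02 for the 22 myelin and mature genes, beside 0.02 over all tested genes. These sums are descriptions of 2 libraries a region, and no test was made on them. Other properties of the libraries separated the regions as the precursor sum did. Genes with at least 1 count numbered 19519 and 19532 in dorsal striatum against 16915 and 17417 in accumbens. The ribosomal RNA precursor Rn45s took 2.03% and 3.34% of counts against 5.61% and 5.94%, and the transcript row AK140265 took 6.92% and 4.38% against 9.29% and 10.3%. Their part in the precursor and myelin values was not tested.

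**Figure D3:**
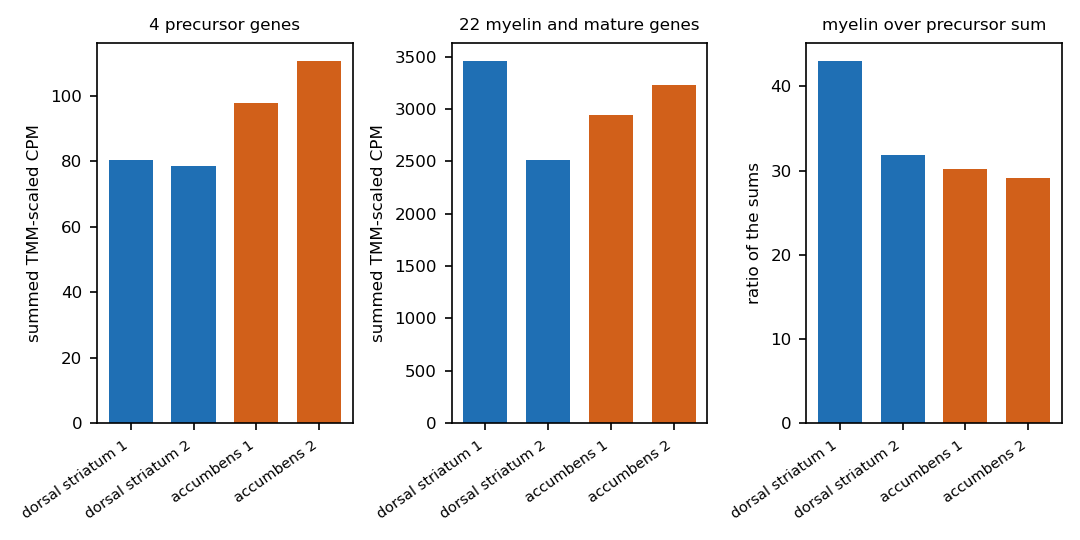
Summed TMM-scaled CPM of the 4 precursor genes (left) and the 22 myelin and mature genes (middle), and the ratio of the sums (right), 1 bar per library with dorsal striatum in blue and accumbens in orange. Precursor sums are 80.4 and 78.7 against 97.7 and 111 CPM, and the ratio is highest in dorsal striatum replicate 1 at 43.1.

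The 2 dorsal striatum libraries differed in the same direction across the myelin genes. All 22 myelin and mature genes were higher in dorsal striatum replicate 1 than in replicate 2, by 0.12 (Gjb1) to 0.80 (Cldn11) on the log2 scale and by 0.52 in the median. Over all tested genes 50% were higher in replicate 1. The 5 transcription factors and 3 genes of committed cells were also higher in replicate 1, with medians of 0.36 and 0.43, whereas 2 of 4 precursor genes were, with a median of −0.08. Microglia, astrocyte, endothelial and mural markers moved with this difference, but ependymal and fibroblast markers did not. Of 4 tested ependymal and choroid plexus markers 1 was higher in replicate 1 (median −0.25). Of 2 tested perivascular fibroblast markers 1 was (median −0.15). All 10 microglia markers and 10 of 12 astrocyte markers were higher in replicate 1, with medians of 0.69 and 0.56, and Gfap, the astrocyte filament gene, stood at 62.1 against 14.8 CPM. Between regions the 12 astrocyte markers had 6 positive and 6 negative log2 fold changes, with a median of −0.003. The astrocyte connexin gene Gja1 was the 1 marker of that list past the threshold, beside 0.994% of all genes called higher. It stood at 27.1 and 28.0 CPM in dorsal striatum against 52.9 and 58.3 CPM in accumbens (1.01, SE 0.19, adjusted p = 0.0491). It passed in 7 of 13 alternatives, and not without dorsal striatum replicate 1 (0.351) or replicate 2 (0.234). Sums were 136 against 83.2 CPM for microglia and 3038 against 2132 CPM for astrocyte markers, and the sum of 8 cortical neuron markers was 131 against 65.6 CPM. Spiny projection neuron markers had 7 of 11 higher in replicate 1 with a median of 0.02. Between regions 1 of them passed, Rgs9, a regulator of G protein signalling, at 1590 and 1314 CPM against 659 and 663 CPM (−1.14, SE 0.13, adjusted p = 0.0233), and it passed in all 13 alternatives. What part other cell types or dissected tissue have in the difference was not tested.

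Accumbens replicates differed in another way. Replicate 2 was higher in 18 of the 22 myelin and mature genes and in 4 of 5 transcription factors, with medians of −0.21 and −0.77 for replicate 1 minus replicate 2, and 50% of all tested genes were higher in replicate 2. Over all 34 genes the widest gaps were those of Qdpr (−1.27), Myrf (−1.27), the low C1ql1 (−0.98) and Ugt8a (−0.95). Of the 34, 7 ran the other way, among them Mbp (0.11), Trf (0.18), Bcas1 (0.24) and Olig2 (0.61). Mal (0.00), Gjc3 (−0.04) and Cnp (−0.06) hardly differed between these libraries. Other abundant genes did, among them Tspan2 (−0.39), Car2 (−0.34) and Ermn (−0.21). Spiny projection neuron markers were higher in replicate 1 in 10 of 11 cases, with a median of 0.28, and astrocyte markers split 7 to 5. The plot of replicate differences sets these values beside each other.

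**Figure D4:**
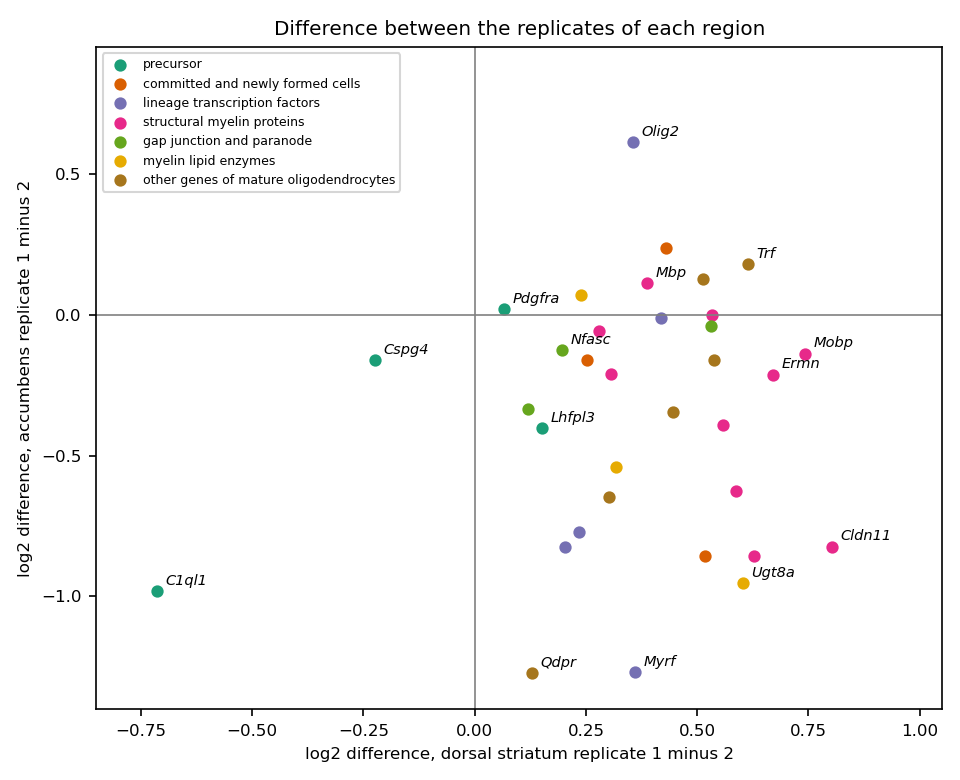
Log2 difference between replicates 1 and 2 in dorsal striatum (x axis) and in accumbens (y axis), 1 point per gene, coloured by role. All 22 myelin and mature genes lie to the right of 0, and Qdpr and Myrf lie lowest at −1.27 on the y axis.

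Further genes of the lineage, listed apart from the 34, also gave no call. Of 16 other precursor genes 0 passed in the edgeR test (5 higher and 0 lower at an unadjusted p under 0.05, 3 higher with DESeq2 and 2 higher with limma-voom). Over all genes the shares higher were 10.9%, 4.15% and 2.14% by these 3 rules. Of the 16 genes 10 had a positive and 6 a negative log2 fold change, from −1.18 to 1.60, and the median was 0.38. The 2 with the highest level were Ptprz1, a receptor phosphatase gene shared with astrocytes, at 201 and 161 CPM against 276 and 276 CPM (0.61, SE 0.14, adjusted p = 0.0828), and Sox8 at 82.8 and 85.3 CPM against 93.0 and 116 CPM. Of 12 tested genes of committed cells 0 passed (1 lower at an unadjusted p under 0.05, 0 with DESeq2 or limma-voom), with Sirt2 at 116 and 110 CPM against 112 and 124 CPM and Fyn at 78.1 and 91.4 CPM against 62.8 and 51.8 CPM. The highest levels among 36 other mature genes were those of Dock10, at 181 and 165 CPM against 208 and 165 CPM, and Tmem88b, at 219 and 157 CPM against 141 and 165 CPM. Of these 36 genes of mature oligodendrocytes 0 passed (4 higher and 4 lower at an unadjusted p under 0.05, 1 higher and 1 lower with DESeq2, 1 higher with limma-voom). They had 18 positive and 18 negative log2 fold changes and a median of 0.00, and 28 of 36 were higher in dorsal striatum replicate 1 than in replicate 2. Without accumbens replicate 1, with 18.2% of all genes called, the counts were 4 higher and 0 lower, 1 and 1, and 5 and 2 for these 3 lists. Without accumbens replicate 2, with 28.9% called, they were 5 and 1, 2 and 1, and 3 and 6. Without dorsal striatum replicate 1, with 0.71% called, they were 1 higher, 0 and 1 higher.

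Genes of lipid metabolism gave 1 call, beside 0.994% of all genes called higher. The list for sphingolipid, galactolipid and fatty acid metabolism held 15 genes. At an unadjusted p under 0.05, 3 were higher and 1 lower (10.9% and 8.27% of all genes). DESeq2 and limma-voom each called 1 higher (4.15% and 2.14%). Scd1, a fatty acid desaturase gene (chromosome 19, 44394455 to 44407879), was the gene called. It rose from 26.3 and 21.9 CPM in dorsal striatum to 47.6 and 63.5 CPM in accumbens (1.21, SE 0.23, adjusted p = 0.0496). The call sits at the threshold. It was made in 7 of 13 alternatives, with adjusted p from 3.98e-05 to 0.210, and was lost without dorsal striatum replicate 1 (0.0802) or replicate 2 (0.210), with DESeq2 size factors, upper-quartile factors or library size alone (0.0539 to 0.0590), and without the 50 most abundant genes (0.0535). Its close relative Scd2, the form abundant in brain, stood at 912 and 751 CPM against 870 and 873 CPM (0.07, SE 0.13, adjusted p = 0.824). Reads from similar parts of the 2 genes may be split by the counting. Of 22 cholesterol synthesis genes 0 passed with edgeR (4 higher and 0 lower at an unadjusted p under 0.05, 3 higher with DESeq2, 2 higher with limma-voom, beside 10.9%, 4.15% and 2.14% of all genes), with a median of 0.18. Srebf2, the master regulator of the pathway, stood at 74.8 and 90.7 CPM against 88.8 and 91.1 CPM, and Hmgcs1, an early enzyme, at 82.7 and 86.1 CPM against 82.1 and 87.4 CPM. Cholesterol genes gave 4 higher and 0 lower without accumbens replicate 1 (18.2% of all genes called), and 5 higher and 2 lower without replicate 2 (28.9%). Both pathways serve neurons and astrocytes too.

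Of 13 tested partners of oligodendrocytes at nodes and paranodes 0 passed (1 higher at an unadjusted p under 0.05, 1 higher with DESeq2, 0 with limma-voom), with a median of 0.15. Ank3, the ankyrin gene of nodes, stood at 1222 and 1161 CPM against 1425 and 1314 CPM, and Ank2, a related ankyrin gene, at 781 and 703 CPM against 855 and 786 CPM. There was 1 lower without accumbens replicate 1 (8.13% of all genes lower) and there were 4 higher without replicate 2 (15.5% higher). The plot of other lists shows all tested genes of these groups.

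**Figure D5:**
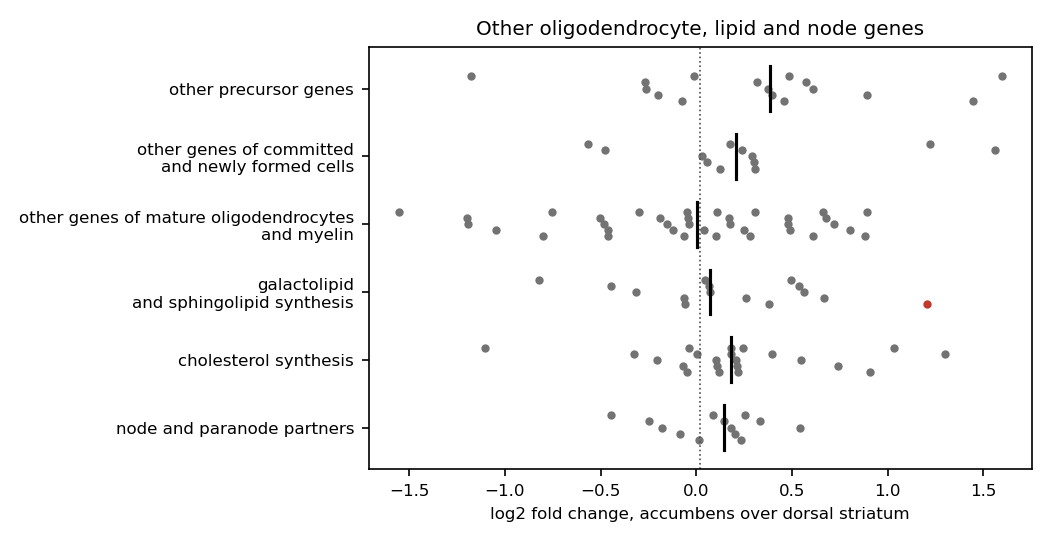
Log2 fold change (accumbens over dorsal striatum) of each tested gene in 6 lists kept apart from the 34 genes; black bars mark list medians, the dotted line the median of all tested genes, and red the genes with adjusted p under 0.05. Scd1 at 1.21 is the single red point, and mature oligodendrocyte genes spread evenly around 0.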

How the data were processed

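Total RNA of 2 dorsal striatum and 2 accumbens input libraries was profiled. The authors deposited raw read counts per gene symbol. Per the submitters' processing notes, the tools were STAR 2.0.0e and HTSeq, with the build mm10. Gene models and strand setting: not given in the sources used here. Reads of a gene and of one overlapping it, or antisense to it, may therefore be mixed. Reads with no feature (27.5% to 35.4%), ambiguous reads (6.06% to 9.46%) and multiple alignments (6.98% to 10.2%) were left out.

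Genes were tested with edgeR 4.0.16 in R 4.3.3 (TMM, filterByExpr, estimateDisp, glmQLFit, glmQLFTest, region as the only term), two-sided, with Benjamini-Hochberg adjustment over all tested genes at 0.05. SE is the log2 fold change over the square root of F. Alternatives were run with DESeq2 1.42.0, limma 3.58.1 (voom), other scalings and filters, a replicate block, a length offset, and each library left out. The main edgeR fit, DESeq2 and limma-voom were tested on simulated data with a common dispersion for all genes. The other alternatives were not. Lengths and coordinates are from GENCODE M21 (GRCm38), sequences from RefSeq. Replicates of a region differed beyond sampling noise (chi-square over degrees of freedom 14.2 and 16.8). The labels name no separate animals, and p-values therefore reflect the spread among these libraries alone, possibly a technical one.

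Members and lists were chosen with earlier results of these data known. Named are all members and, of other lists, genes past the threshold or else the 2 with the highest mean CPM. Named outside this rule, after their values were seen, were Scd2 and the markers Col1a1, Drd1, Foxj1, Gfap, Penk, Ppp1r1b and Slc17a7.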

Additional observations from a re-analysis of the deposited data

How the results depend on the processing

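With 2 libraries a region, many of these values depend on 1 library. Across 13 alternatives 20 of 34 genes kept their direction and 14 reversed in at least 1; 16 were called in at least 1 and 18 in none, all but Ermn, Mal and Mbp of the 16 only with an accumbens library left out. The 0 calls higher and 0 lower among members became 1 and 2 with no low-count filter, where 1203 of 21169 genes were called. They were 1 and 1 with DESeq2 (933 of 14493 genes, 6.44%), and 1 and 0 with limma-voom (431 of 14493, 2.97%). With the replicate block they were 1 (Mbp) and 1 (Ermn), and 843 of 14493 genes passed in all, against 186 in the main fit. Replicate numbers are shared by label only, and deviations correlated at 0.03 over 13015 genes between the 2 pairs. The cause of these differences was not tested. Leaving out 1 library gave 0 to 9 higher, 0 to 6 lower and 109 to 4464 genes in all; the extremes of the totals were dorsal striatum replicate 1 and accumbens replicate 2. Library size alone moved the median of all genes by −0.17 and the share of calls higher in accumbens from 77.4% to 29.5% (67.4% with upper quartile, 63.8% with no filter, 64.4% with DESeq2, 65.4% with the block). Medians stayed between 0.39 and 0.69 for precursor genes and between −0.24 and 0.21 for myelin genes.

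Reversed signs were small in the full designs. With library size alone they were Mobp (−0.048), Cnp (−0.066), Nfasc (−0.13) and Qdpr (−0.11), and with upper quartile Nfasc (−0.0095). Qdpr was at −0.076 with limma-voom, −0.063 with the block and −0.085 with the length offset, and Enpp2 at 0.016 with limma-voom. With 1 library left out, reversing genes ranged from −0.034 to 0.23 (Cnp), −0.27 to 0.25 (Enpp2), −0.65 to 0.24 (Enpp6), −0.36 to 0.15 (Gjc3), −0.21 to 0.52 (Mobp), −0.50 to 0.37 (Mog), −1.09 to 0.18 (Myrf), −0.056 to 0.13 (Nfasc), −0.17 to 0.61 (Olig1), −0.72 to 0.56 (Qdpr), −0.60 to 0.23 (Sox10), −0.45 to 0.15 (Trf), −0.51 to 0.039 (Tspan2) and −0.67 to 0.28 (Ugt8a).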
